A study of Populus ussuriensis with 20 samples.

Results

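The ARBORKNOX genes ARK1 and ARK2 are poplar members of the class I KNOX family. They were followed at the base of stem cuttings of Populus ussuriensis through the first days of adventitious rooting. The members were taken from a list of 3 gene models, namely ARK1 (Potri.011G011100.v3.0), its duplicate (Potri.004G004700.v3.0) and ARK2 (Potri.002G113300.v3.0). Of these, 2 stood among the 39538 gene models of the deposited tables. The duplicate was not analysed here.

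The 20 libraries came from 10 groups of 2, each replicate pooling 40 cuttings, of which the lowest 0.5 cm was taken at 6, 12, 24, 48 and 96 h after cutting. Wild-type plants (WT) were set beside plants carrying 35S::PuHox52 (labelled PuHox52-OE, here OE), in which the broadly active 35S promoter of cauliflower mosaic virus drives PuHox52. All cuttings of both genotypes stood on half-strength Murashige and Skoog medium with 16 h of light and 8 h of dark. Plant age is 2 weeks in one source text and 4 weeks in another, and the number of transgenic lines is not stated. With no gene names in the tables, PuHox52 itself and markers of stem tissue could not be used to check the labels. Libraries held 10399262 to 27472303 counts, and 26391 genes passed the filter on low counts, both ARBORKNOX genes among them.

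Class I KNOX proteins are homeodomain transcription factors of the TALE group. In Arabidopsis they keep cells of the shoot meristem undifferentiated, in part by favouring cytokinin and limiting gibberellin synthesis, and they act with BEL1-like homeodomain partners. ARK1 is the poplar relative of Arabidopsis SHOOT MERISTEMLESS, and ARK2 that of BREVIPEDICELLUS. In poplar stems both are known for their expression in the cambium, the meristem that forms wood and phloem, and for regulating how its daughter cells differentiate.

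ARK1 lay on chromosome 11 from 844486 to 849456 on the minus strand, and ARK2 on chromosome 2 from 8461980 to 8468320 on the plus strand, in the coordinates of the tables, whose genome build is not given in the sources used here. The spans of 4971 and 6341 bases held gene models of 1358 and 2225 bases. No other model overlapped ARK2. Potri.011G011200.v3.0 shared 258 bases with ARK1 on the same strand, and it had 3 counts over all 20 libraries against 3579 for ARK1. How reads in the shared bases, or reads that match ARK1 and its duplicate equally, were counted is not given. The ARK1 level is uncertain to that extent.

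ARK2 was the more abundant of the 2 transcripts in every library. On the deposited FPKM scale, a level per gene length, ARK2 ranged from 44.7 to 63.7 with a median of 52.5. ARK1 ranged from 4.62 to 15.9 with a median of 9.58. The ranges did not overlap. Within a library, the FPKM was not always the same multiple of count per base of the gene model for both genes. How it was calculated is not given, so its ratios can differ from those of count per base. Among all gene models of its library, ARK2 stood at percentile 92.1 to 94.5 by FPKM and ARK1 at percentile 58.0 to 78.2. Behind these levels were 897 to 2845 counts of ARK2 and 62 to 310 counts of ARK1 per library.

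**Figure D1:**
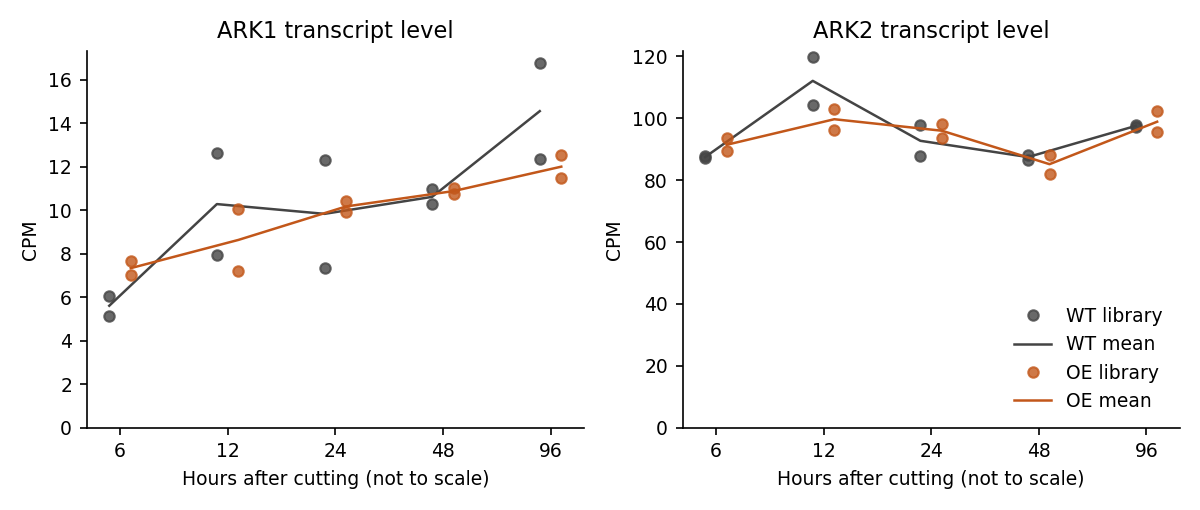
CPM of ARK1 (left) and ARK2 (right) against hours after cutting, with 1 point per library and lines through the group means (n = 2) for WT and OE. ARK1 goes from 5.16 to 7.66 CPM in the 6 h libraries to 11.5 to 16.7 CPM in the 96 h libraries, while ARK2 stays between 82.0 and 120 CPM throughout.

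ARK1 in WT was higher at the later times than at 6 h. No library was made from uncut stems, so the level before cutting is not known. In WT its level, as scaled CPM (the share of the library's scaled total), was 6.06 and 5.16 in the 6 h libraries. The 12 h pair held 12.6 and 7.95 CPM, the 24 h pair 12.3 and 7.34, the 48 h pair 10.3 and 10.96, and the 96 h pair 16.7 and 12.4. Every later WT library thus lay above both 6 h libraries. The share of all genes with such an order was not taken, and the ARK1 replicates at 12 and 24 h stood far apart. Their log2 gaps of 0.66 and 0.74 were wider than those of 91.2 and 91.5% of the genes tested in the same groups.

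From 6 to 96 h in WT, ARK1 went from 5.61 ± 0.637 to 14.5 ± 3.10 CPM (SD, n = 2 each), a 2.61-fold rise with a 95% interval of 1.77 to 3.84 (log2 fold change 1.38, SE 0.262). In the quasi-likelihood test of edgeR the p adjusted after Benjamini and Hochberg was 0.000263, and it was at most 0.00693 with any 1 library left out. Such a call was common, since 30.2% of all genes tested were called higher in WT at 96 h (adjusted p under 0.05). The ARK1 change stood at percentile 88.6 of all log2 fold changes in that comparison, whose median was 0.027. In whole tissue, more cells that express a gene and more RNA per cell cannot be told apart.

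The earlier WT changes of ARK1 were smaller. Relative to 6 h, ARK1 changed by 0.87 on the log2 scale after 12 h (SE 0.262), by 0.80 after 24 h (SE 0.273) and by 0.93 after 48 h (SE 0.268), with adjusted p of 0.0165, 0.0224 and 0.00774 by the same edgeR test. The shares of all genes called higher at these times were 17.6, 24.1 and 28.5%. Without WT 6 h replicate 2 the changes were 0.76, 0.71 and 0.80, about as large, but with the single library left at 6 h none of the 3 passed (adjusted p 0.125, 0.125 and 0.0738). Leaving out WT 12 h replicate 1 brought the 12 h change to 0.52 (adjusted p 0.167), and leaving out WT 24 h replicate 1 brought the 24 h change to 0.40 (adjusted p 0.297). The 48 h change stayed between 0.80 and 1.04 with any 1 library left out.

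In OE, the ARK1 pair of 6 h stood at 7.01 and 7.66 CPM and that of 12 h at 7.20 and 10.1 CPM. The 24 h pair held 9.91 and 10.4 CPM, the 48 h pair 11.02 and 10.7, and the 96 h pair 12.5 and 11.5. From 24 h on all OE libraries lay above both OE libraries of 6 h, for which no share over all genes was taken. The replicates of a time were close to each other except at 12 h.

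The rise in OE from 6 to 96 h was 1.64-fold (95% interval 1.14 to 2.35, log2 fold change 0.71, SE 0.246), from 7.34 ± 0.457 to 12.0 ± 0.726 CPM (SD, n = 2 each). Its adjusted p was 0.0202 by edgeR's quasi-likelihood test, in a comparison in which 31.1% of all genes were called higher. ARK1 was thus called higher at 96 h in both genotypes, as were 24.2% of all genes tested. The log2 change was 0.62 without OE 6 h replicate 1 (adjusted p 0.123), 0.75 without OE 6 h replicate 2 (adjusted p 0.0536) and 0.63 without OE 96 h replicate 1 (adjusted p 0.0893), so its size was much the same while the call was lost. The log2 fold changes at 12, 24 and 48 h were 0.23, 0.47 and 0.57, with adjusted p of 0.501, 0.141 and 0.0630, so none passed, while 17.8, 21.8 and 28% of all genes were called higher. At 48 h the adjusted p was 0.0389 to 0.0417 without any 1 of the 4 WT libraries of 12 and 24 h, which enter that comparison only through the filter, the scaling and the shared spread, and 0.0430 with no filter on low counts.

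With the genotypes combined, a comparison added after the data had been seen, the log2 change of ARK1 from 6 h was 0.55, 0.64, 0.75 and 1.05 at 12, 24, 48 and 96 h (SE 0.180 to 0.186). By the same edgeR test the adjusted p were 0.0185, 0.00735, 0.00180 and 7.06e-05, and 24.7, 29.5, 34.6 and 36.5% of all genes were called higher. The 48 and 96 h calls were kept with each library left out in turn. The 12 h call was lost with a change of 0.50 without WT 6 h replicate 2 (adjusted p 0.0713) and of 0.53 without OE 6 h replicate 1 (adjusted p 0.0548). It was also lost with smaller changes of 0.38 without WT 12 h replicate 1 (adjusted p 0.0887) and 0.43 without OE 12 h replicate 2 (adjusted p 0.0839). The 24 h change became 0.44 without WT 24 h replicate 1 (adjusted p 0.0553).

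ARK2 moved little. In WT the 6 h pair held 87.7 and 87.2 CPM, the 12 h pair 120 and 104, the 24 h pair 97.7 and 87.7, the 48 h pair 88.2 and 86.6, and the 96 h pair 97.1 and 97.9. The 12 h libraries were the highest of the WT course, and the 48 h libraries were within about a CPM of those at 6 h.

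The ARK2 rise at 12 h in WT was 1.28-fold (95% interval 1.12 to 1.46, log2 fold change 0.36, SE 0.0903), from 87.4 ± 0.318 to 112 ± 11.1 CPM (SD, n = 2 each). The adjusted p was 0.00598 by edgeR's quasi-likelihood test, against a background of 17.6% of genes called higher, and it became 0.0624 without WT 12 h replicate 1. At 24, 48 and 96 h the log2 fold changes from 6 h were 0.083, -0.00026 and 0.16, with adjusted p of 0.471, 1.00 and 0.147. The 95% intervals of these changes reached from -0.19 to 0.35 on the log2 scale.

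In OE, the ARK2 level was 89.3 and 93.5 CPM in the 6 h pair, 96.3 and 103 in the 12 h pair, 93.8 and 98.1 in the 24 h pair, 82.0 and 88.2 in the 48 h pair, and 95.4 and 102 in the 96 h pair. The 12, 24 and 96 h libraries all lay above both of 6 h, and both 48 h libraries below them. How many of all genes have such orders was not counted. The log2 fold changes from 6 h were 0.12, 0.070, -0.10 and 0.11 (SE 0.0899 to 0.0904), and none was called (adjusted p 0.289 to 0.560). With both genotypes together, a comparison added after the data had been seen, the 12 h rise of ARK2 was 0.24 (SE 0.0637). Its adjusted p was 0.00497 by edgeR's quasi-likelihood test, which called 24.7% of all genes higher there. With each library left out in turn, this rise ranged from 0.20 to 0.29. The combined change at 96 h was 0.14 with an adjusted p of 0.0690.

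**Figure D2:**
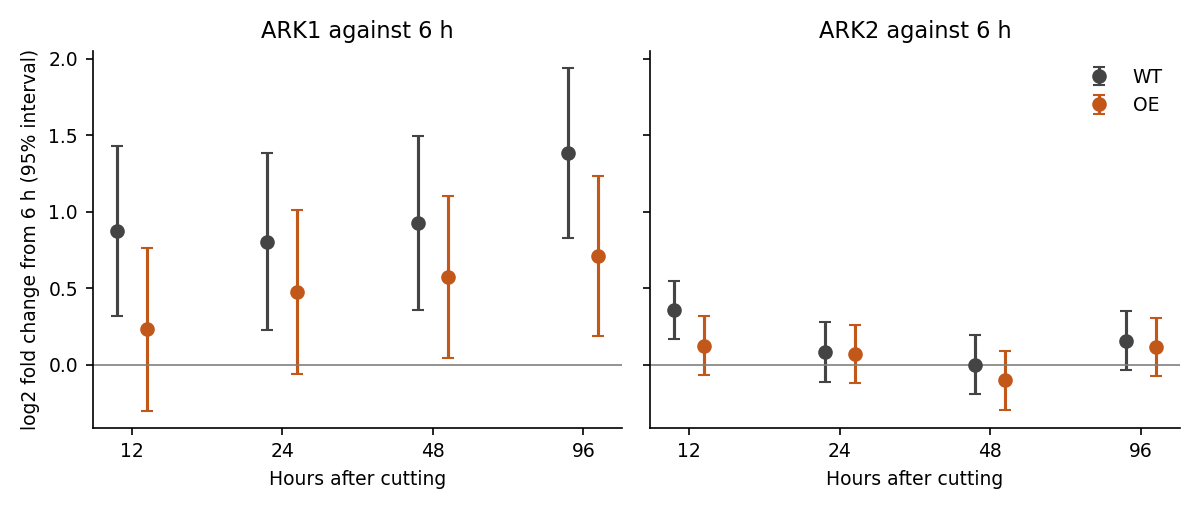
Log2 fold change from 6 h of ARK1 (left) and ARK2 (right) at 12, 24, 48 and 96 h in WT and OE, with 95% intervals from the edgeR fit over all 20 libraries and a grey line at no change. The WT points of ARK1 lie at 0.80 to 1.38 and those of OE at 0.23 to 0.71, and the points of ARK2 lie at -0.10 to 0.36.

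The sampling times 24, 48 and 96 h are whole days after cutting. They share an hour of the light cycle if all cuttings were made at the same hour, which the labels do not state. On that condition 6 h falls at another hour. In the changes from 6 h, time since cutting and hour of day therefore cannot be told apart. Between 24 and 96 h the log2 change of ARK1 was 0.58 (SE 0.243) in WT and 0.24 (SE 0.238) in OE, with adjusted p of 0.0820 and 0.495 by edgeR's quasi-likelihood test. Neither passed, while 30.3 and 26.5% of all genes were called in either direction. The WT value became 0.99 (adjusted p 0.0259) without WT 24 h replicate 1, the library with the higher ARK1 level of its group. From 24 to 48 h, ARK1 changed by 0.12 in WT and 0.099 in OE and ARK2 by -0.084 and -0.17, and from 24 to 96 h ARK2 changed by 0.073 and 0.044. None of these was called (adjusted p 0.275 to 0.860), and from 24 to 48 h 5.58% of all genes were called in WT and 6.61% in OE.

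Ordered by mean CPM, the ARK1 groups ran from WT at 6 h through OE at 6 h (7.34) and OE at 12 h (8.63) to WT at 24 h (9.83), OE at 24 h (10.2), WT at 12 h (10.3), WT at 48 h (10.6), OE at 48 h (10.9), OE at 96 h (12.0) and WT at 96 h (14.5). Only 2 steps in this order separated neighbours whose libraries did not overlap, the first, from WT to OE at 6 h, and that from OE at 48 h to OE at 96 h. For ARK2 the order ran from OE at 48 h (85.1 CPM) through WT at 48 h (87.4), WT at 6 h (87.4), OE at 6 h (91.4), WT at 24 h (92.7), OE at 24 h (95.9), WT at 96 h (97.5), OE at 96 h (98.8) and OE at 12 h (99.7) to WT at 12 h (112). Here the neighbours without overlap were WT and OE at 6 h, and OE and WT at 12 h. Of all genes tested, 20.8% had both OE libraries above both WT libraries at 6 h, and 19.1% had them below at 12 h. For the ARK1 step from OE at 48 h to OE at 96 h no share over all genes was taken.

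The other question was whether PuHox52 overexpression altered either gene. Averaged over the 5 times, the log2 difference of OE minus WT was -0.011 for ARK1 (SE 0.111, 95% interval -0.25 to 0.23) and -0.015 for ARK2 (SE 0.0403, 95% interval -0.10 to 0.071). Neither was called, with adjusted p of 0.989 and 0.945 by edgeR's quasi-likelihood test, and 1.16% of all genes tested were. As ratios of OE to WT, the intervals ran from 0.843 to 1.17 for ARK1 and from 0.933 to 1.05 for ARK2.

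At single times, ARK1 in OE differed from WT by 0.39 (SE 0.277), -0.25 (SE 0.236), 0.060 (SE 0.249), 0.035 (SE 0.241) and -0.28 (SE 0.232) on the log2 scale at 6, 12, 24, 48 and 96 h. The adjusted p by the same edgeR test were 0.622, 0.751, 0.968, 1.00 and 0.643. These intervals are wide, as at 6 h a ratio of OE to WT from 0.871 to 1.97 lay within the 95% interval. ARK2 differed by 0.063, -0.17, 0.050, -0.038 and 0.020 (SE 0.0891 to 0.0911), with adjusted p of 0.848, 0.498, 0.897, 1.00 and 0.951. The test called 1.09, 0.398, 0.739, 0.0455 and 1.53% of all genes at these times, shares that were far lower with some single libraries left out (for example 28 in place of 287 genes at 6 h without WT 6 h replicate 1, and 23 in place of 403 at 96 h without OE 96 h replicate 2).

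At 6 h both OE libraries stood above both WT libraries for ARK1 and for ARK2, as they did for 20.8% of all genes tested. At 12 h both OE libraries stood below both WT libraries for ARK2, as they did for 19.1% of all genes. At 24, 48 and 96 h the libraries of the genotypes overlapped for both genes.

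**Figure D3:**
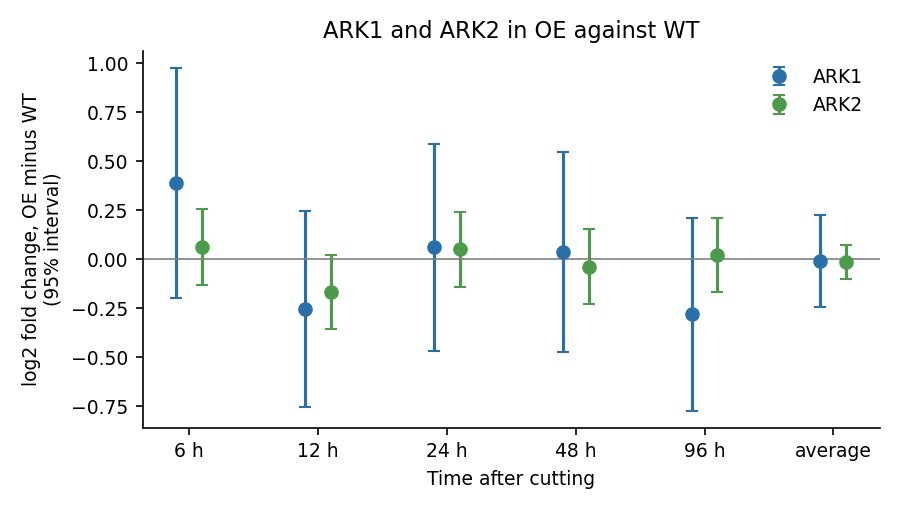
Log2 fold change of OE minus WT for ARK1 and ARK2 at each time after cutting and averaged over the times, with 95% intervals and a grey line at no difference. All 12 intervals include 0, and those of ARK2 are the narrower at every time.

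The ARK1 rise from 6 to 96 h was 1.38 in WT and 0.71 in OE on the log2 scale, and the difference between these rises was -0.67 (SE 0.361, 95% interval -1.44 to 0.094). It was not called, with an unadjusted p of 0.0815 and an adjusted p of 0.391 in edgeR's test, which called 2.36% of all genes in that comparison. With 1 library left out the difference ranged from -0.87 to -0.43. At 12 h the difference between the genotypes in the change from 6 h was -0.64 for ARK1 (SE 0.364, adjusted p 0.451) and -0.23 for ARK2 (SE 0.127, adjusted p 0.433), where 1.62% of all genes were called. The 12 h difference of ARK1 ranged from -0.94 to -0.28 with 1 library left out. Over all times jointly, the test of whether the genotype difference changed gave adjusted p of 0.711 for ARK1 and 0.717 for ARK2, and it called 1.65% of all genes. For the changes from 6 to 24 h and from 6 to 48 h the differences were -0.33 and -0.35 for ARK1 and -0.013 and -0.10 for ARK2, and none passed the test, which called 0.955 and 0% of all genes. In the latter comparison 1614 genes had an unadjusted p under 0.05 in edgeR, and DESeq2 called 54. These comparisons of changes between the genotypes from 6 h were added after the data had been seen. The interval for 96 h holds equal rises, a weaker rise in OE and a slightly stronger one.

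The balance of the pair shifted with time. In WT the FPKM of ARK2 was 9.16 and 10.6 times that of ARK1 in the 6 h pair, 5.36 and 7.60 times in the 12 h pair, 4.61 and 7.54 times in the 24 h pair, 5.13 and 4.45 times in the 48 h pair, and 3.39 and 4.24 times in the 96 h pair. In OE these ratios were 6.93 and 7.39 in the 6 h pair, 7.65 and 6.05 in the 12 h pair, 5.73 and 4.96 in the 24 h pair, 4.35 and 4.79 in the 48 h pair, and 4.28 and 5.19 in the 96 h pair. Every 96 h library had a lower ratio than every 6 h library.

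The log2 ratio of ARK1 to ARK2 FPKM was 0.99 higher at 96 h than at 6 h, with 1.38 in WT and 0.60 in OE. A two-sided exact permutation test of time within genotypes gave p = 0.0556, the smallest p that its 36 arrangements allow. Between the genotypes the same log2 ratio differed by 0.054 (OE minus WT, mean over the 5 times), which was higher in OE at 3 of 5 times, with p = 0.636 in a two-sided exact permutation test within times over 7776 arrangements. Both tests were added after the data had been seen. With count per base of the gene model in place of FPKM, each kept its direction, and the genotype test stayed above 0.05. The time test cannot fall under 0.05, so its side shows nothing.

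**Figure D4:**
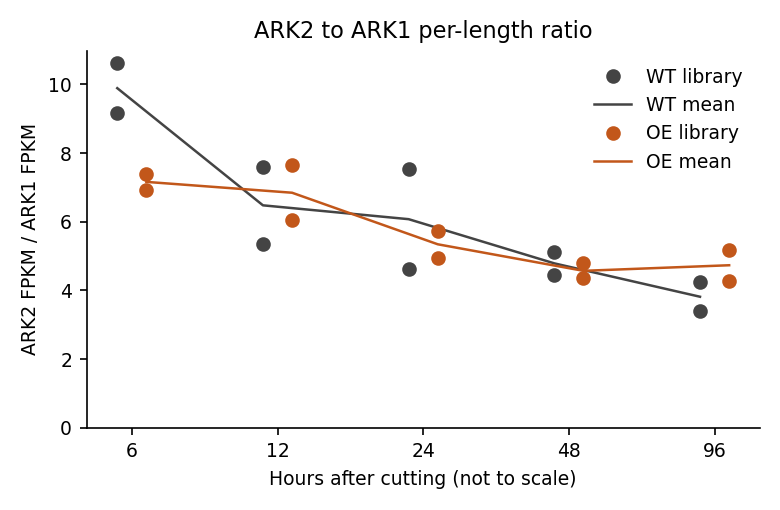
Ratio of ARK2 to ARK1 FPKM against hours after cutting, with 1 point per library and lines through the group means of WT and OE. The ratio lies at 6.93 to 10.6 in the 6 h libraries and at 3.39 to 5.19 in the 96 h libraries.

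The pair also differed in how far they ranged. Over the 10 group means of log2 CPM, ARK1 ranged by 1.35 and ARK2 by 0.39, against a median range of 1.08 over all 26391 genes tested. Among the 2050 genes within 0.5 of its mean log2 level, ARK2 stood at percentile 14.98 by range, and ARK1 stood at percentile 71.7 among the 3816 genes near its own level. ARK2 libraries of a group were also close to each other, with a mean log2 gap of 0.084 (percentile 4.88 of all genes) against 0.30 for ARK1 (percentile 67.6). ARK2 also had the higher counts of the pair, and the part of depth in this gap was not tested.

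**Figure D5:**
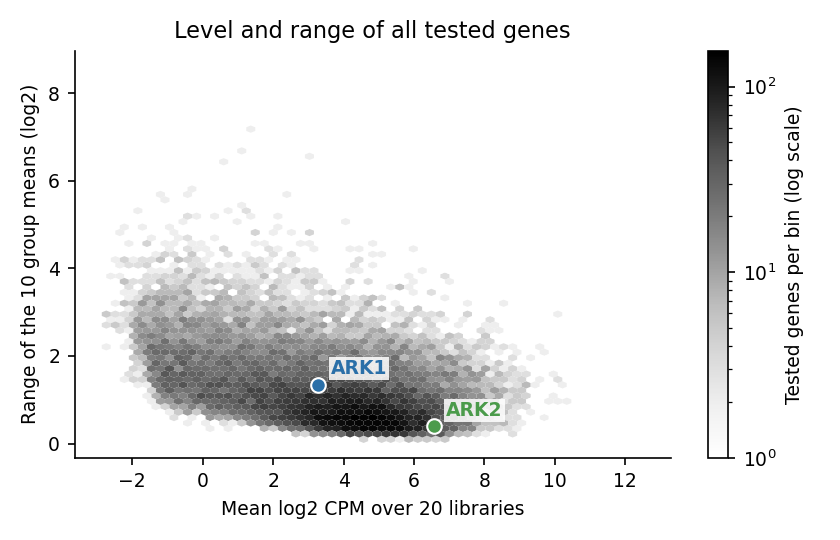
Range of the 10 group means against mean log2 CPM for all genes tested, shaded by the number of genes per bin on a log scale, with ARK1 and ARK2 marked. ARK1 has a mean of 3.28 and a range of 1.35, and ARK2 a mean of 6.56 and a range of 0.39, at percentile 14.98 for its level.

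Across the 20 libraries, which share the time course, the log2 CPM of ARK1 and ARK2 had a Pearson's r of 0.37. The genes whose pattern was most like that of ARK1, among 21454 whose mean log2 CPM reached 1, were Potri.001G009800.v3.0 (r = 0.89) and Potri.006G279100.v3.0 (r = 0.88). The first went from 7.27 to 22.7 CPM between 6 and 96 h in WT and from 9.16 to 21.0 in OE, and the second from 19.3 to 46.8 and from 23.0 to 40.6. In all, 418 genes had an r above 0.8 with ARK1.

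Only 2 genes had an r above 0.8 with ARK2. These were Potri.001G452400.v3.0 (r = 0.83) and Potri.005G033700.v3.0 (r = 0.82). The first was a gene of low level with 4.45 CPM on average. Between 6 and 96 h it went from 3.76 to 3.50 CPM in WT, but from 3.01 to 6.88 in OE. The second, like ARK2, moved little, with 67.8 CPM at 6 h and 72.8 at 96 h in WT, and 66.8 and 70.7 in OE. These likenesses are descriptions over libraries in which most genes change with time.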

How the data were processed

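RNA from basal ends of stem cuttings was sequenced in 20 libraries (125-base paired-end reads, per the series' design text). Per the file headers, each deposited table held, per gene model, a normalized signal beside a count and an FPKM. Per the submitters' processing notes, TopHat2 2.1.1 and HTSeq 0.6.0 were among the tools. No source used here gives their settings, the use of strand or the build. Tests used the deposited count. The deposited FPKM served for levels between genes. The deposited signal was divided by 1 factor per library to rebuild counts, which did not return every count exactly. The deposited count was at most 1 above the rebuilt one for either gene. It was above in 7 libraries for ARK1 and in 9 for ARK2.

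R 4.3.3 and edgeR 4.0.16 were used: filterByExpr defaults, TMM scaling, 1 group-means model over all 20 libraries (10 residual degrees of freedom), glmQLFit and glmQLFTest, and Benjamini-Hochberg adjustment over 26391 genes. A gene is called at an adjusted p under 0.05. SE was taken as the log2 change over the root of F, and 95% intervals use the fit's degrees of freedom. DESeq2 1.42.0 was an alternative. The log2 CPM used for ranges and correlations had a prior count of 2. The code was tested on simulated data. In no group were replicates as close as sampling alone would leave them, since the chi-square of their counts was 4.48 to 16.2 per degree of freedom (genes with at least 10 counts). The labels do not say how replicates were kept apart beyond calling them biological, and their numbers only name libraries.

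Named genes were the members and, for each, the 3 genes with the highest r, of which 2 are printed since their IDs carry no product. The gene lists and cell type markers by product, and the share of ARK1 in the pair with its duplicate, were planned but need an annotation or gene model not used here. No sequence is printed for the same reason. Members and lists were chosen with earlier results of these data known.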

Additional observations from a re-analysis of the deposited data

How the results depend on the processing

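For the members, 225 of 230 values under other settings and 1049 of 1108 values with 1 library left out kept their direction and side of the threshold. Both totals include the time test of the FPKM ratio, whose p cannot fall under 0.05, so that its side was fixed in advance. The exceptions under other settings were ARK2 OE minus WT at 96 h with median-of-ratios size factors (-0.0060) and DESeq2 (-0.0055), ARK2 from 6 to 48 h in WT (0.020) and from 24 to 96 h in OE (-0.0056) with no filter, and ARK1 from 6 to 48 h in OE with no filter (0.58, then called). With 1 library left out, log2 OE minus WT ranged from -0.085 to 0.072 (ARK1) and -0.038 to 0.0016 (ARK2) on average. It ranged from -0.55 to 0.11 at 12 h, -0.29 to 0.47 at 24 h, -0.0082 to 0.087 at 48 h and -0.48 to -0.044 at 96 h for ARK1, and from 0.029 to 0.099 at 6 h, -0.27 to -0.070 at 12 h, -0.036 to 0.13 at 24 h, -0.082 to 0.0089 at 48 h and -0.047 to 0.055 at 96 h for ARK2. Changes from 6 h ranged, for ARK1, from 0.52 to 1.18, 0.40 to 1.16 and 0.80 to 1.04 in WT at 12, 24 and 48 h, from -0.021 to 0.46, 0.50 to 0.63 and 0.62 to 0.75 in OE at 12, 48 and 96 h, and from 0.38 to 0.71 and 0.44 to 0.82 over both genotypes at 12 and 24 h. For ARK2 in WT they ranged from 0.27 to 0.46 at 12 h and -0.020 to 0.0065 at 48 h. Changes from 24 h in WT ranged from -0.25 to 0.53 at 48 h and 0.21 to 0.99 at 96 h for ARK1, and for ARK2 from -0.029 to 0.15 at 96 h in WT and -0.052 to 0.049 in OE. The genotype difference in the change from 6 to 24 h ranged from -0.67 to 0.078 for ARK1 and -0.094 to 0.063 for ARK2, and that of the FPKM log2 ratio from -0.017 to 0.12. The cause of these changes was not tested. Apart from the ARK1 call at 48 h in OE, no call on ARK1 or ARK2 changed under DESeq2, other size factors, no filter, rebuilt counts (added after seeing the data), the additive model or the 4 libraries of a time alone.

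Counts of genes called in OE against WT depended more on the setting. Against 307 on average, 287, 105, 195, 12 and 403 at 6 to 96 h and 436 for the change over times, DESeq2 called 516, 511, 389, 373, 40, 606 and 1331. With no filter there were 522 on average, 390, 377, 32 and 658 at 12 to 96 h, and 1115 for the change. The additive model called 122, and the 4 libraries of a time alone 24, 1 and 762 at 6, 12 and 96 h. With 1 library left out, the counts ranged from 160 to 427 on average, 28 to 332 at 6 h, 13 to 397 at 12 h, 18 to 222 at 24 h, 23 to 498 at 96 h and 152 to 658 for the change over times. The lowest came without OE 96 h replicate 2 (average and 96 h), WT 6 h replicate 1 (6 h and change), WT 12 h replicate 1 and WT 24 h replicate 2. Without WT 96 h replicate 2 there were 33 at 96 h. From 24 to 48 h, 244 to 1899 genes were called in WT and 85 to 2129 in OE, and from 24 to 96 h 4284 to 8228 and 2275 to 7344, each lowest without replicate 1 of 24 h. The share of ARK1 in its pair with the duplicate was not run. No paired analysis was possible because the labels carry no replicate numbers. ARK1 had 62 to 310 counts per library, which sets the counting error of its values, and ARK2 897 to 2845.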

Other observations

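Few neighbours of either gene were called in OE against WT, as was so over all genes tested. There, edgeR called 1.16% in the average and 0.0455 to 1.53% at single times. DESeq2 called 40 to 606 of the 26391 genes in these comparisons. The share of all genes with an unadjusted p under 0.05 was not taken. Within 100 kb of ARK1, 12 of 19 gene models were tested. None of these was called in the average over times or at any of the 5 times in the quasi-likelihood test of edgeR (adjusted p under 0.05) or by DESeq2, while 0 to 3 had an unadjusted p under 0.05 in edgeR. Within 100 kb of ARK2, 17 of 20 models were tested, and 1 was called, lower in OE at 96 h. None was called in the average or at the other times by edgeR, 1 to 4 had an unadjusted p under 0.05, and DESeq2 called 1 at each of 6, 12 and 96 h. Between 6 and 96 h, 4 of the 12 models near ARK1 were called higher and 1 lower in WT, and 4 higher and 2 lower in OE. Of the 17 near ARK2, 7 were called higher and 5 lower in WT and likewise in OE. Over all genes tested, 30.2% were called higher and 30.2% lower in WT, and 31.1% higher and 28.9% lower in OE. The median log2 change from 6 to 96 h was 0.097 in WT and 0.16 in OE around ARK1, and -0.51 and -0.26 around ARK2.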
